A study of Mus musculus with 12 samples.

Results

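DREAM is a protein complex that represses cell cycle genes, and the 10 genes described here encode its subunits and their partners: the pocket proteins Rb1, Rbl1 and Rbl2, the MuvB core Lin9, Lin37, Lin52, Lin54 and Rbbp4, and the activators Mybl2 and Foxm1. They were taken by symbol from a table of 32688 genes, and all 10 passed the filter on low counts. Transcripts were counted by RNA-seq in RAW264.7 cells, a transformed mouse macrophage line. The lines were Null, named wild type in the study's text, and a TFEB/TFE3 double knockout (DKO) made by CRISPR. Each was studied without drug and after 8 h with etoposide at 100 µM. Both lines were grown in high-glucose DMEM with 10% fetal bovine serum, and each of the 4 groups held 3 libraries. TFEB and TFE3 are transcription factors of lysosomal and autophagy genes, and etoposide is a topoisomerase II poison that breaks DNA. The question was how the transcripts of this repressor machinery respond to DNA damage with and without the 2 factors. The study calls the samples of a group independent without saying how they were separated. Each genotype was 1 line, so p-values measure the spread between samples of that line.

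In arrested cells RBL2 or RBL1 binds E2F4 or E2F5, a DP protein and MuvB, and the assembled DREAM complex holds cell cycle promoters silent. When cells enter the cycle, cyclin-dependent kinases phosphorylate the pocket proteins and MuvB is released, to be joined by MYBL2 and then FOXM1 as an activator of mitotic genes. DNA damage is known to favour DREAM through p53 and p21, an inhibitor of these kinases, while RB1 works mainly on the activator E2Fs outside the complex. None of these protein states was measured here, and the values below are transcript levels.

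The libraries held 29837255 to 61809316 counts. Mitochondrial transcripts took 19.4% to 21.7% of them in Null etoposide libraries, 17.0% to 18.1% in DKO etoposide libraries and 14.1% to 18.3% in control libraries, and their part in the results was not tested. Tfeb lay at 3.14 to 5.25 CPM (counts scaled to the library size) in the 6 DKO libraries and 7.10 to 17.2 CPM in the 6 Null libraries, and Tfe3 at 31.5 to 42.5 CPM against 89.4 to 119 CPM, so the targeted genes matched the genotype labels. Titles of the DKO etoposide libraries carry the term MEFs, which stands for fibroblasts, while their remaining labels name RAW264.7. The 8 macrophage markers summed to 4585 to 4775 CPM in these libraries and to 4193 to 5132 CPM in the other groups, and none was at 0, the lowest being Fcgr1 at 4.72 CPM. The 8 fibroblast markers summed to 1.35 to 1.43 CPM there and to at most 2.31 CPM elsewhere. The first library of DKO control cells and the first of Null control cells stood farthest from the others of their group, with a median absolute log2 difference per gene of 0.31 and 0.27, against 0.08 to 0.24 for the remaining 10.

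Promoter sequence was available here for 7 of the members, namely Rbl1, Rbl2, Lin37, Lin52, Lin54, Rbbp4 and Mybl2, as windows of 300 bases around RefSeq transcription starts (GRCm38.p6). The 250 bases upstream of the start are shown, 5′ to 3′ on the strand of the gene, for 3 members that fell further in DKO than in Null cells, for Rbl2, which rose, and for Rbbp4, which fell by like amounts in both. Capitals mark matches, on either strand, to an E2F motif, to the cell cycle homology region (CHR, TTTGAA, the element that LIN54 binds) and to the core of the CLEAR element (GTCACGTG, which holds the E-box CACGTG bound by TFEB and TFE3). The E2F motif was searched as TTNNCGN, where each N is C or G, which makes 8 spellings.
Rbl1, chr2:157204535-157204784, minus strand: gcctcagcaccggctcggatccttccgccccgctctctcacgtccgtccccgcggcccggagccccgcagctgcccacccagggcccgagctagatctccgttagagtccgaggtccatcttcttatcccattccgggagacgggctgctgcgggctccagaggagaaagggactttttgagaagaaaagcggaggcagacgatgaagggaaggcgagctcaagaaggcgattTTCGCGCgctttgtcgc
Mybl2, chr2:163054385-163054634, plus strand: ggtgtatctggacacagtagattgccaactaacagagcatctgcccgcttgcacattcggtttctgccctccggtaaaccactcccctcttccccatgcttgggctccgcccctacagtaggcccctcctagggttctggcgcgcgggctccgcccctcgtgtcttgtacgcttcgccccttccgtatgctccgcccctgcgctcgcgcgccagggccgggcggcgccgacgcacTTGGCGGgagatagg
Lin54, second start, chr5:100498574-100498823, minus strand: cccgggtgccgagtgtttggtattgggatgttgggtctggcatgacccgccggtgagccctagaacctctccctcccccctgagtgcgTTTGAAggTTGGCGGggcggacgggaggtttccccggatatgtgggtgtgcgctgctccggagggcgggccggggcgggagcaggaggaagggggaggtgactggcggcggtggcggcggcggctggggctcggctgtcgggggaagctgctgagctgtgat
Rbl2, chr8:91069807-91070056, plus strand: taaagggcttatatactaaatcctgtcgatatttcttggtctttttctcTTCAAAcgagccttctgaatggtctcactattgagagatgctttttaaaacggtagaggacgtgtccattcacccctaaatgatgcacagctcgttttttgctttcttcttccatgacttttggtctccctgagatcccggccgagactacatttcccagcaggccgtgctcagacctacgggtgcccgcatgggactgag
Rbbp4, chr4:129335371-129335620, minus strand: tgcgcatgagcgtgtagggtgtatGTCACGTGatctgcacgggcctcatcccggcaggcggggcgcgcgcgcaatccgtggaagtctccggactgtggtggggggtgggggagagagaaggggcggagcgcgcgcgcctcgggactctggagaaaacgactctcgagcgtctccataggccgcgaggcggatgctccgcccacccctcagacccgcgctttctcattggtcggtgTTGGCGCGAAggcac

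The E2F motif lay close to the start in Rbl1 (first base 17 upstream), Mybl2 (15 upstream) and Rbbp4, where 2 overlapping matches on opposite strands began 15 and 12 upstream. In Lin54 it stood beside a CHR, at 154 and 162 upstream of the second of its 2 starts. Over all members with a window, 6 of 7 held the E2F motif, and Rbl2 was the exception. The motif occurred in 17.8% of the 32851 windows of the same length. Members are counted by gene, with either start of Lin54, while these shares are by window. Lin54 held the E2F motif at its second start alone and the CLEAR core at its first start alone. The CHR was present in 3 of 7 (Lin37, Lin54 and Rbl2) and in 17.9% of all windows. The CLEAR core was present in 3 of 7 (Lin52, Lin54 and Rbbp4) and in 2.25% of all windows, and these 3 held the E-box, found in 7.15%. The sites of Lin52 and of the first start of Lin54 are shown with their flanks because these genes differ in response, as described below, and the core of Rbbp4 is in its sequence above. In Lin52 the core is read on both strands over the same E-box, across the start itself, and the match on the given strand is in capitals.
Lin52, chr12:84451492-84451521, plus strand: cggttggttacGTCACGTGacatgggctgg
Lin54, first start, chr5:100500767-100500796, minus strand: ccccaggagcaGTCACGTGgaaccccagag
A match is a run of letters and not a measured binding site.

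**Figure D1:**
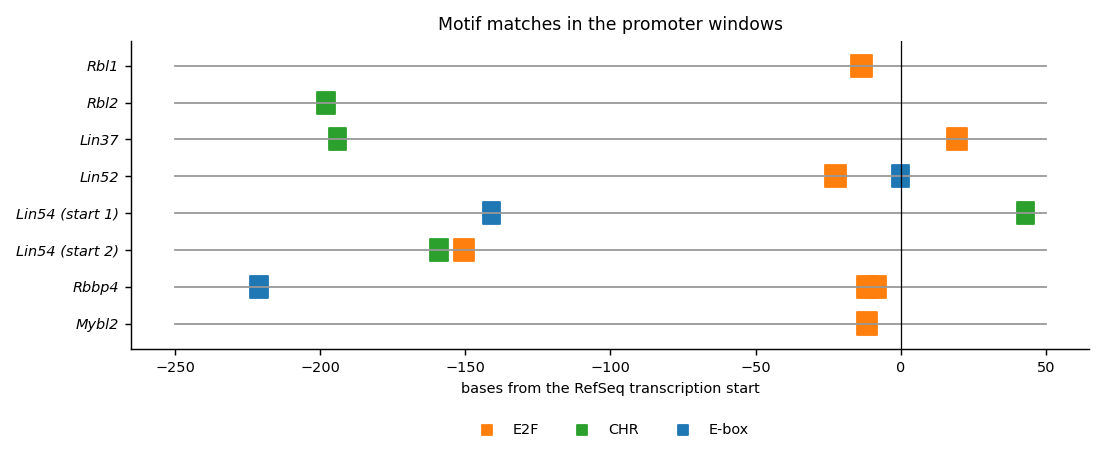
Positions of motif matches (x axis, bases from the RefSeq transcription start, from 250 upstream to 50 downstream) in the windows of the 7 members, with both starts of Lin54. Boxes are E2F (orange), CHR (green) and E-box (blue) matches, and in 5 of the 7 members (Rbl1, Lin37, Lin52, Rbbp4 and Mybl2) an E2F box lies close to the start.

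Across the 10 genes, etoposide split the pocket proteins from one another in both lines, and the genotypes differed in more members after the drug than without it. In Null cells 1 member rose (Rbl2) and 5 fell, against 20.9% of all 18066 tested genes called higher and 18.7% called lower. In DKO cells 1 rose (again Rbl2) and 8 fell, against 20.2% and 19.1% of all genes. Between the control groups 2 members were lower in DKO cells (8.39% of all genes lower), and after etoposide 8 were lower (17.8%). No member was called higher in either, where 1974 and 2868 of all 18066 genes were. The response itself differed between the lines, as an interaction, in 6 members, all in the direction of lower in DKO cells (6.39% of all genes). The median log2 difference over the 10 members was -0.33 for etoposide in Null cells, -0.91 in DKO cells, -0.09 for DKO minus Null in control cells and -1.03 after etoposide, where the median of all genes lay between -0.01 and 0.03. Calls are at an adjusted p under 0.05 (limma-trend, Benjamini-Hochberg over all 18066 genes). In bulk RNA, fewer cells in the phases that express a gene and less of its RNA per cell cannot be told apart.

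**Figure D2:**
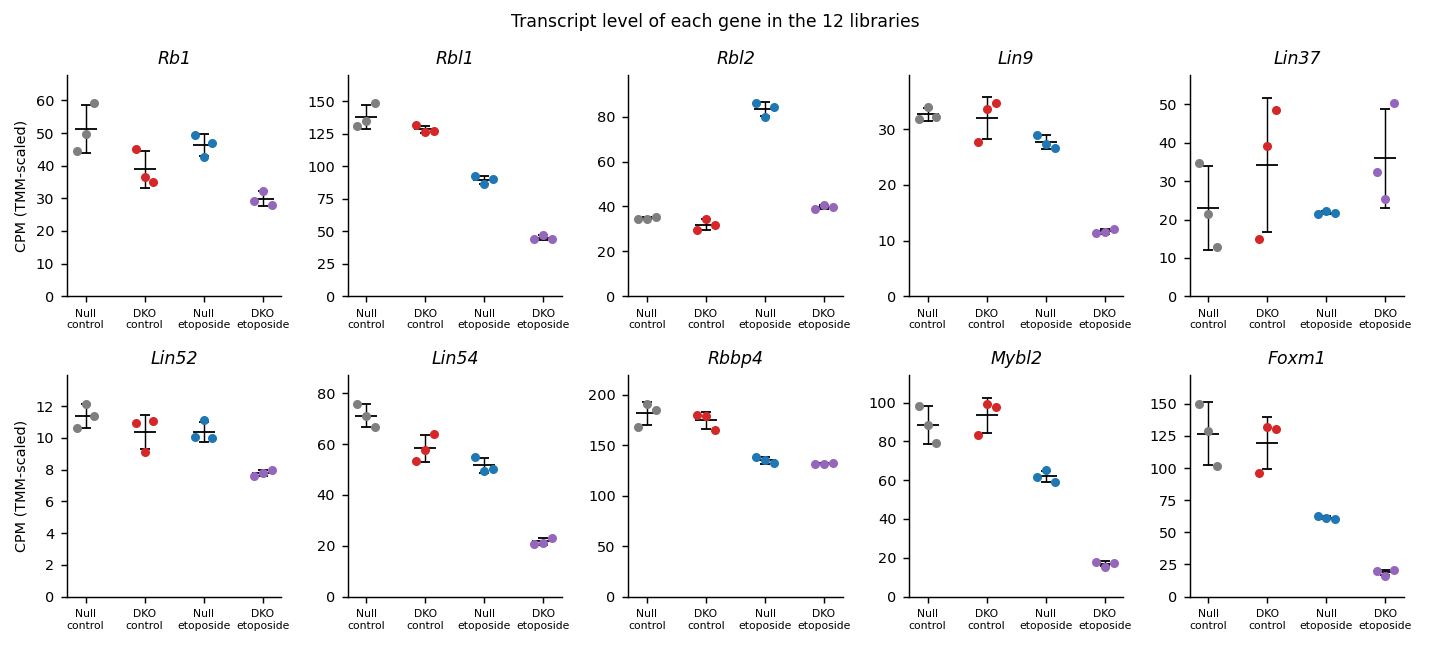
Transcript level of each gene (y axis, CPM on TMM-scaled library sizes, from 0) in the 4 groups. Points are single libraries, and bars the mean ± SD of 3. Rbl2 is highest in Null etoposide libraries (80.1 to 85.9 CPM), while Rbl1, Lin9, Lin54, Mybl2 and Foxm1 are lowest in DKO etoposide libraries.

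Rbl2 (ENSMUSG00000031666.15, chromosome 8, 91070057 to 91123844, plus strand, GRCm38) encodes p130, the pocket protein that predominates in the DREAM of resting cells. Its level was 34.6, 34.4 and 35.4 CPM in Null control and 29.3, 34.3 and 31.9 CPM in DKO control libraries. After etoposide it was 85.9, 80.1 and 84.4 CPM in Null and 39.0, 40.8 and 39.9 CPM in DKO libraries. The etoposide libraries of each line all lay above its control libraries, and the Null etoposide libraries stood far above the DKO ones. Rbl2 rose 2.40-fold in Null cells (log2 1.26, SE 0.0704, limma-trend adjusted p 5.32e-08) and 1.26-fold in DKO cells (log2 0.33, adjusted p 0.00262). The 2 responses differed by -0.93 on the log2 scale (95% interval -1.15 to -0.72, adjusted p 5.59e-05), and after the drug the level in DKO cells was 2.09-fold lower. In control cells the genotypes did not pass the test (log2 -0.13, adjusted p 0.247), although with library size alone as the scaling the difference was -0.21 with an adjusted p of 0.0393. Gm45464, annotated on the opposite strand, shares exon bases with Rbl2 and could supply up to 13.1% of its counts, and Aktip up to 4.86%, since the strand setting of the counting was not stated.

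Rbl1 (ENSMUSG00000027641.13, chromosome 2, 157145893 to 157204534, minus strand), the gene of the relative p107 and a known E2F target in cycling cells, went the other way. Its level was 131, 135 and 148 CPM in Null control and 132, 126 and 127 CPM in DKO control libraries, which overlapped. After etoposide it was 92.3, 86.1 and 90.5 CPM in Null and 43.9, 47.2 and 44.1 CPM in DKO libraries, with no overlap between them or with the control libraries. Rbl1 fell by 0.62 on the log2 scale in Null cells (adjusted p 1.53e-05) and by 1.51 in DKO cells (SE 0.0679, adjusted p 3.43e-09), a 2.85-fold drop. The responses differed by -0.89 (95% interval -1.10 to -0.68, adjusted p 6.02e-05).

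Rb1 (ENSMUSG00000022105.6, chromosome 14, 73183673 to 73325822, minus strand), the retinoblastoma gene, had the smallest of the 3 differences between the lines after etoposide and the largest in control cells. Its level was 44.5, 49.8 and 59.1 CPM in Null control and 45.2, 36.4 and 34.9 CPM in DKO control libraries. With the drug it was 49.4, 42.7 and 47.0 CPM in Null and 29.2, 32.3 and 28.1 CPM in DKO libraries. The DKO etoposide libraries lay below those of every other group, and the control groups overlapped in 1 DKO library. After the drug Rb1 was 1.55-fold lower in the DKO line than in the Null line (log2 -0.63, SE 0.122, adjusted p 0.00148). It was also lower in control DKO cells (log2 -0.39, adjusted p 0.0393) and fell with the drug in DKO cells (log2 -0.37, adjusted p 0.0288), while in Null cells the difference was -0.13 (adjusted p 0.424) and the interaction -0.24 (95% interval -0.61 to 0.14). Leaving out 1 library gave -0.23 to -0.024 for the former and -0.35 to -0.10 for the latter, with no call. Over all alternatives the interaction ran from -0.35 to -0.014. The control call was lost on leaving out Null control library 2 or 3, DKO control library 2 or 3, or Null etoposide library 2 or 3 (log2 -0.41 to -0.28, adjusted p 0.0530 to 0.149). Without both first control libraries, a fit added after the data were seen, the difference was -0.62 (adjusted p 0.000327). That fit drops the lowest Null control library (44.5 CPM) and the highest DKO control library (45.2 CPM) for Rb1, so a wider gap was set by the choice. The drop with etoposide in DKO cells lost its call without DKO control library 1 or DKO etoposide library 1 or 3 (log2 -0.35 to -0.25, adjusted p 0.0908 to 0.0978). It also lost it with library size alone (log2 -0.31, adjusted p 0.0697) and with the replicate block (log2 -0.37, adjusted p 0.0586).

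Set side by side per kilobase of exon, the 3 pocket protein transcripts changed in proportion and in total. Rbl2 made up 12.8% ± 0.825 and 13.2% ± 1.38 of their summed level in control Null and DKO libraries, and 32.8% ± 0.279 and 29.7% ± 0.790 after etoposide (SD, n = 3). The ratio of Rbl2 to Rbl1, on the same scale, was 0.201 ± 0.0107 and 0.197 ± 0.0193 in control Null and DKO libraries and 0.739 ± 0.00127 and 0.702 ± 0.0166 after etoposide. The balance therefore shifted towards Rbl2 in both lines, by rising Rbl2 and falling Rbl1 in Null cells and mainly by falling Rbl1 in DKO cells. The summed level was 36.1 ± 2.83 and 32.1 ± 1.13 CPM per kb in control Null and DKO libraries, and 33.7 ± 1.5 and 17.8 ± 0.770 CPM per kb after etoposide. The sum was thus near its control level in Null cells after the drug and lowest in DKO cells after the drug. These proportions are a description, with no test.

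**Figure D3:**
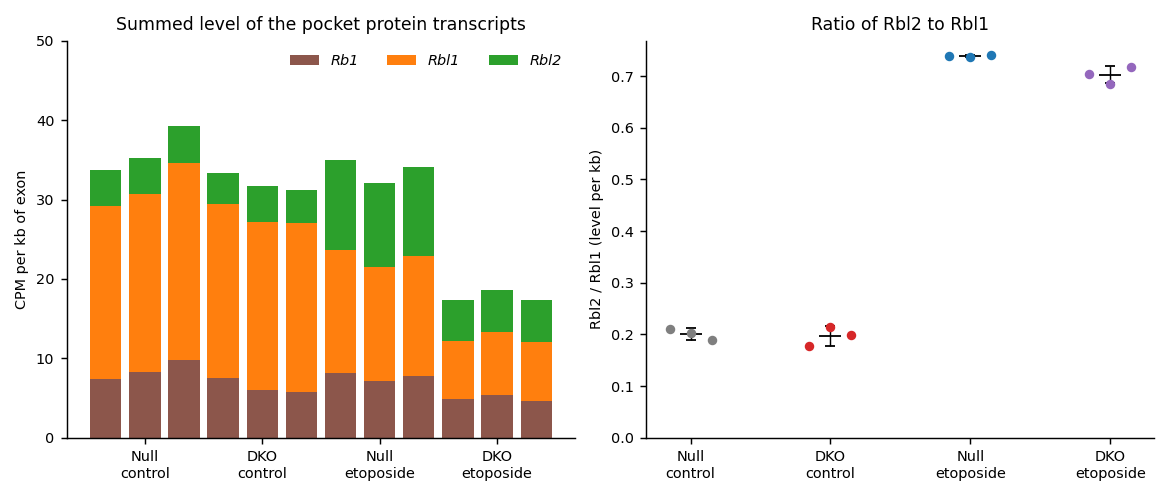
Left, level of the pocket protein transcripts (y axis, CPM per kb of exon) stacked in each of the 12 libraries, 3 bars a group. Right, the ratio of Rbl2 to Rbl1 per kb (points, libraries; bars, mean ± SD of 3). The ratio is 0.177 to 0.215 in control libraries and 0.685 to 0.740 after etoposide, while the stacks of DKO etoposide libraries are the shortest.

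The MuvB core did not move as 1 unit. Lin54 and Lin9 fell markedly in DKO cells after etoposide, Lin52 and Rbbp4 fell little, and Lin37 varied too much between libraries to be placed. Lin54 (ENSMUSG00000035310.15, chromosome 5, 100441918 to 100500639, minus strand) encodes the subunit that contacts the CHR in DNA. Its level was 75.9, 71.0 and 66.6 CPM in Null control and 53.2, 57.8 and 63.8 CPM in DKO control libraries. After etoposide it was 54.8, 49.6 and 50.3 CPM in Null and 20.9, 21.1 and 23.1 CPM in DKO libraries. No library of either genotype overlapped the other in control cells or after the drug, and the DKO etoposide libraries did not exceed 23.1 CPM where no other library was under 49.6 CPM. Lin54 fell by 0.46 in Null cells (adjusted p 0.000898) and by 1.42 in DKO cells (SE 0.0854, adjusted p 5.61e-08), with an interaction of -0.96 (95% interval -1.22 to -0.70, adjusted p 0.000226). Its smaller difference in control cells (log2 -0.29, adjusted p 0.0312) lost the call without Null control library 1 or 2, DKO control library 1 or 2, or Null etoposide library 3 (log2 -0.30 to -0.24, adjusted p 0.0512 to 0.0913), and stood at -0.20 (adjusted p 0.0856) without both first control libraries.

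Lin9 (ENSMUSG00000058729.13, chromosome 1, 180641150 to 180690694, plus strand), a scaffold subunit through which MuvB meets MYBL2, was at 31.8, 34.0 and 32.2 CPM in Null control and 27.7, 33.6 and 34.6 CPM in DKO control libraries. After etoposide it was at 29, 27.3 and 26.7 CPM in Null and 11.3, 11.6 and 12 CPM in DKO libraries. Control libraries of the genotypes overlapped (log2 -0.04, 95% interval -0.23 to 0.16), and after the drug the DKO libraries were far below. The DKO response was a fall of 1.45 on the log2 scale, or 2.73-fold (SE 0.0898, adjusted p 7.69e-08), and the interaction was -1.21 (95% interval -1.48 to -0.93, adjusted p 4.90e-05). In Null cells the difference of -0.24 narrowly missed the threshold (adjusted p 0.0511), although the 2 groups of libraries did not overlap. It passed under 9 of 22 alternatives, with adjusted p from 0.0104 to 0.0496. These were the fits without DKO control library 1, 2 or 3, without DKO etoposide library 3 or without both first control libraries, library size alone, the DESeq2 Wald test, the filter of 1 CPM and the fit of the 2 groups alone.

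Lin52 (ENSMUSG00000085793.1, chromosome 12, 84451422 to 84546145, plus strand) encodes the subunit that the kinase DYRK1A phosphorylates to let DREAM assemble. It was the lowest of the 10 in CPM, at 10.6, 12.2 and 11.4 CPM in Null control and 11, 9.12 and 11.1 CPM in DKO control libraries. With the drug it was at 10.1, 11.1 and 10.0 CPM in Null and 7.58, 7.82 and 7.97 CPM in DKO libraries. Only the DKO etoposide libraries stood apart, below all the rest. After the drug Lin52 was 1.33-fold lower in the DKO line (log2 -0.41, SE 0.10, adjusted p 0.00716) and fell by 0.41 in DKO cells (adjusted p 0.00636). The interaction of -0.27 did not pass the test (95% interval -0.58 to 0.03, adjusted p 0.311).

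Rbbp4 (ENSMUSG00000057236.10, chromosome 4, 129307100 to 129335370, minus strand) encodes a histone-binding protein that also serves in other chromatin complexes. It was at 168, 191 and 185 CPM in Null control and 180, 179 and 165 CPM in DKO control libraries, and at 139, 135 and 132 CPM in Null and 131, 131 and 132 CPM in DKO libraries after etoposide. The drug groups lay below the control groups in both lines, and the genotypes overlapped in each condition. Rbbp4 fell by 0.42 in Null cells (adjusted p 0.000303) and by 0.41 in DKO cells (adjusted p 0.000404). The difference between these responses was 0.02 with a 95% interval of -0.19 to 0.22, that is, between 0.876-fold and 1.17-fold. Up to 8.02% of its counts could come from Gm26722 on the opposite strand.

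Lin37 (ENSMUSG00000036845.12, chromosome 7, 30555441 to 30559838, minus strand) encodes a subunit needed for repression by DREAM. Its level was 34.6, 21.4 and 12.8 CPM in Null control and 14.8, 39.1 and 48.5 CPM in DKO control libraries. After etoposide it was 21.4, 22.3 and 21.7 CPM in Null and 32.4, 25.3 and 50.3 CPM in DKO libraries. The control groups overlapped widely, and the etoposide groups did not overlap, with every DKO library above every Null one. No comparison passed the test: the log2 difference was 0.66 for DKO minus Null after etoposide (SE 0.425, adjusted p 0.261, and 0.40 without DKO etoposide library 3) and 0.14 for the interaction, whose 95% interval of -1.17 to 1.45 includes no difference as well as the value of Lin54. Its SD within groups, 0.63 on the log2 scale, was larger than that of 95.7% of all genes, whose median was 0.21, while the other 4 core genes lay between 0.06 and 0.10. The deviations of Lin37 from its group means followed those of E2f4, the gene of the main E2F in DREAM, over the 12 libraries (Pearson's r 0.99), and those of Foxm1 (r 0.95). These are values of the same libraries, so depth and composition are shared, and the part of these in the spread was not tested. Both genes were picked, and no r over all genes was set beside these values. The order of control libraries was the same in Tfe3 and in Cdk6, which was at 257, 216 and 197 CPM in Null and 346, 475 and 502 CPM in DKO control libraries. Without both first control libraries Lin37 was higher in DKO control cells by 1.37 (adjusted p 0.0125), which was not called with them (0.52, adjusted p 0.477) or on leaving out 1 library (0.16 to 1.02, lowest adjusted p 0.0637).

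**Figure D4:**
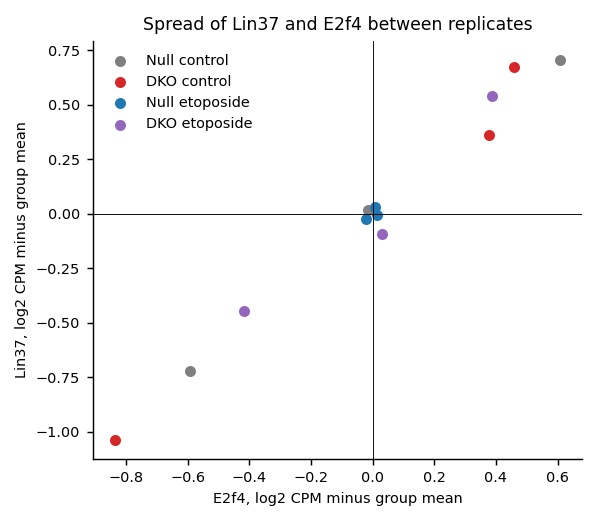
Deviation of Lin37 (y axis) against that of E2f4 (x axis) from the group mean, in log2 CPM, for the 12 libraries. Points are libraries coloured by group. The points run from the lower left to the upper right, and the 3 Null etoposide libraries lie close together near 0.

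In DKO cells the activators showed the largest drops of the 10. Mybl2 (ENSMUSG00000017861.11, chromosome 2, 163054687 to 163084688, plus strand) encodes B-MYB, which joins MuvB in S phase. Its level was 98.4, 88.3 and 79.1 CPM in Null control and 83.2, 99.4 and 97.6 CPM in DKO control libraries. After etoposide it was 61.7, 65.1 and 59.3 CPM in Null and 18, 15.3 and 17.5 CPM in DKO libraries. The control libraries of the genotypes overlapped, the Null etoposide libraries lay below all of them, and the DKO etoposide libraries lay lower still. Mybl2 fell 1.42-fold in Null cells (log2 -0.51, adjusted p 0.00145) and 5.49-fold in DKO cells (log2 -2.46, SE 0.101, adjusted p 1.45e-09). The interaction of -1.95 (95% interval -2.26 to -1.64, adjusted p 1.66e-06) was the largest in size among the 10.

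Foxm1 (ENSMUSG00000001517.14, chromosome 6, 128362967 to 128376146, plus strand) encodes the forkhead factor that binds MuvB in G2. It was at 150, 129 and 101 CPM in Null control and 96.1, 132 and 131 CPM in DKO control libraries, and at 62.8, 61.1 and 60.6 CPM in Null and 19.6, 16.1 and 20.5 CPM in DKO libraries after etoposide. As for Mybl2, the control groups overlapped and the DKO etoposide libraries were lowest. Foxm1 fell 2.04-fold in Null cells (log2 -1.03, adjusted p 0.000184) and 6.33-fold in DKO cells (log2 -2.66, SE 0.152, adjusted p 3.53e-08), and the responses differed by -1.64 (95% interval -2.11 to -1.17, adjusted p 0.000324). In control cells the genotypes did not pass the test for either gene, with 95% intervals of -0.14 to 0.30 for Mybl2 and -0.41 to 0.25 for Foxm1.

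**Figure D5:**
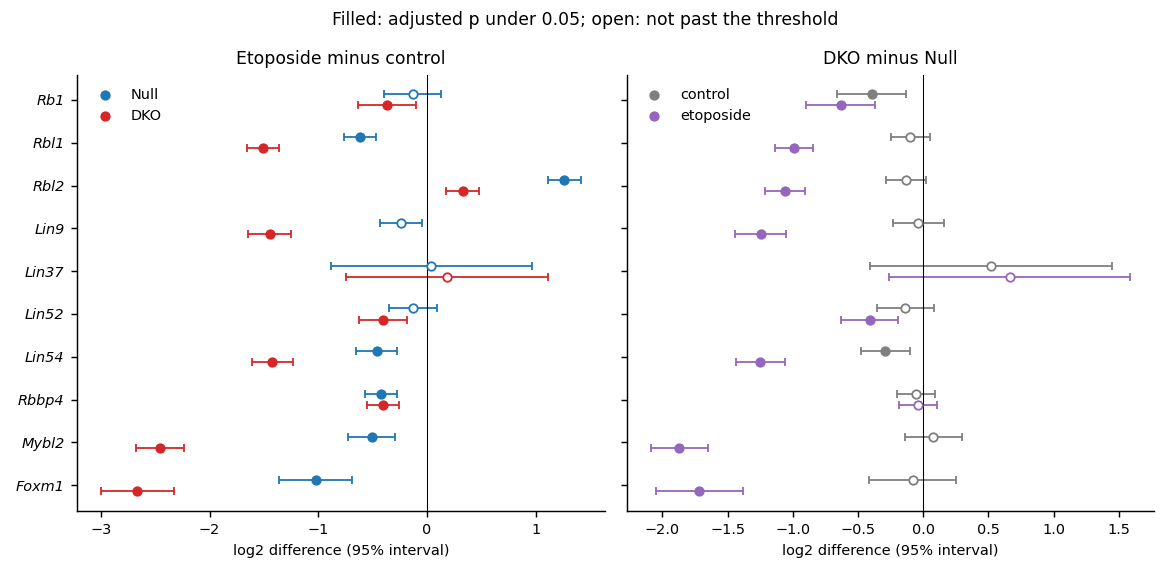
Log2 difference (x axis, points, with 95% intervals) of each gene for etoposide minus control in Null and DKO cells (left) and for DKO minus Null in control and etoposide-treated cells (right). Filled points passed the threshold. Rbl2 alone is to the right of 0 among filled points, and Mybl2 and Foxm1 are farthest left in DKO cells.

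The levels per kilobase of exon, counted over the union of a gene's exons, give an order of the 10 transcripts. In Null control cells Rbl1 (23.0 CPM per kb), Foxm1 (22), Rbbp4 (20.7), Mybl2 (19.1) and Lin37 (16.5) each overlapped the next in range, down to Lin54 (12.2), and below these came Rb1 (8.5), Rbl2 (4.6), Lin9 (4.51) and Lin52 (3.66), of which Rbl2 and Lin9 overlapped. In Null etoposide cells Rbl2 (11 CPM per kb) had moved up to the fifth place, overlapping Foxm1 (10.7). In DKO etoposide cells the order ran Lin37 (25.9), Rbbp4 (15), Rbl1 (7.52), Rbl2 (5.28), Rb1 (4.97), Lin54 (3.72), Mybl2 (3.66), Foxm1 (3.26), Lin52 (2.51) and Lin9 (1.61). Foxm1 and Mybl2, which were above Rb1 in control cells and in Null cells after the drug, were below it there. Neighbours that overlapped in that order were Rbl2 with Rb1, Lin54 with Mybl2 and Mybl2 with Foxm1. The order depends on the length used. Per kilobase of the longest transcript Rbbp4 came first in Null control (38.9 CPM per kb) and DKO etoposide cells (28.2, with Lin37 at 27.4), Lin9 (10.3) stood above Rbl2 (7.06) in Null control cells, Rbl2 (16.9) was above Foxm1 (13.2) and beside Mybl2 (17.0) in Null etoposide cells, and Lin52 (3.43) was last in DKO etoposide cells, below Lin9 (3.68).

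For 5 members the genes of most similar log2 CPM over the 12 libraries were listed, as a description in which the 4 group means weigh heavily and library depth and composition are shared. Mybl2 was most like Plk1 (Pearson's r 0.998), Ccnb2 (0.997) and Cdca8 (0.996), and Foxm1 most like E2f8 (0.998) and the histone genes Hist1h2ag and Hist1h2ah (both 0.997). Rbl1 was most like Atad2 (0.998), Knstrn (0.997) and Racgap1 (0.996). For Rbl2 the highest was Gm45464 (0.994), which overlaps it, followed by Enc1 (0.986) and Zc3h12d (0.983). Rb1 had the lowest values, with H2-M3 at 0.971, Zkscan3 at 0.966 and Tdp2 at 0.964. Mybl1, a paralog of Mybl2, went the other way with etoposide: it was at 8.72, 12 and 14.2 CPM in Null control and 14.1, 11.6 and 11.6 CPM in DKO control libraries, and at 65.4, 56.9 and 63.1 CPM in Null and 18, 18.8 and 16.6 CPM in DKO libraries after the drug. Mybl1 rose in both lines (log2 2.43 and 0.52, adjusted p 1.34e-07 and 0.0162, interaction -1.91, adjusted p 9.00e-05). The etoposide libraries of Mybl1 lay above its control libraries in both lines, as for Rbl2. Between the lines it was like Mybl2, with DKO minus Null after the drug at -1.79 against -1.87, and the interaction of Mybl2 at -1.95. Rbbp7, the paralog of Rbbp4, fell by 0.48 on the log2 scale in both lines (adjusted p 0.000170 in Null and 0.000182 in DKO cells).

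Of the other subunits of DREAM, none of the 4 E2F and DP partners passed the interaction test or the test between control groups, which 1708 and 3490 of all 18066 genes passed. Tfdp2 fell with etoposide by 0.85 in Null cells (adjusted p 1.09e-05) and by 1.22 in DKO cells (adjusted p 3.77e-07). Tfdp1 fell by 0.30 in DKO cells (adjusted p 0.0216). After etoposide 2 of 4 were lower in DKO cells, against 17.8% of all genes. These were the DP subunits, Tfdp1 (log2 -0.38, adjusted p 0.00757) and Tfdp2 (log2 -0.36, adjusted p 0.00735). E2f4 was at 385, 250 and 167 CPM in Null control and 151, 350 and 371 CPM in DKO control libraries. With the drug it was at 187, 191 and 192 CPM in Null and 253, 186 and 325 CPM in DKO libraries, which overlapped (log2 0.39, adjusted p 0.435). E2f5 differed by -0.07 (adjusted p 0.679). Of the 3 activator E2Fs, the partners of RB1, 2 were lower in DKO cells after etoposide, against 17.8% of all genes. These were E2f1 (log2 -0.69, adjusted p 0.000708) and E2f2 (log2 -0.67, adjusted p 3.79e-05), and E2f3 was at -0.11 (adjusted p 0.223).

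Among kinases and inhibitors that set DREAM assembly, 6 of the 8 listed genes were tested (Cdkn1c was too low and Cdkn2b was not analysed here). After etoposide 1 was higher in DKO than in Null cells (Lats2, log2 0.29) and 2 were lower, where 2868 and 3211 of all 18066 tested genes were. Cdkn2c, a CDK4 and CDK6 inhibitor, differed most, at 7.09, 7.36 and 7.69 CPM in DKO against 19.0, 20.2 and 20.1 CPM in Null libraries (log2 -1.41, adjusted p 3.64e-08), and its relative Cdkn2d followed (log2 -0.61, adjusted p 0.00746), although in control cells Cdkn2d was higher in the DKO line (log2 0.56, adjusted p 0.0201). Dyrk1a, the LIN52 kinase, differed by 0.36 (adjusted p 0.129), and Cdkn1a, which encodes p21, by -0.29 (adjusted p 0.0779). Cdkn1a was 2.21-fold higher in DKO than in Null control cells (adjusted p 1.55e-05), and with the drug it rose 8.17-fold in Null cells and 3.02-fold in DKO cells (interaction log2 -1.44, adjusted p 0.000118). Of 9 cyclins and kinases of G1 and S phase, 2 were higher in DKO cells after the drug (Cdk6 and Ccnd1) and 4 lower (Ccna2, Ccnd2, Cdk2 and Ccne2), against 2868 and 3211 of all 18066 genes. Ccna2 (log2 -3.02, adjusted p 3.57e-10) and Ccnd2 (log2 -2.36, adjusted p 1.13e-08) had the most negative differences, and Cdk6 the most positive (log2 1.51, adjusted p 4.51e-06), while Cdk2 differed by -0.85 (adjusted p 5.79e-07). Ccnd2 and Cdk6 already differed in that direction in control cells (log2 -1.93 and 0.97, adjusted p 1.30e-07 and 0.000303), as did Ccnd1 (0.57, adjusted p 3.14e-05), while Ccne2 was higher in DKO control cells (0.30, adjusted p 0.0346) and Ccna2 did not pass the test there (log2 -0.11).

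Genes known as targets of these complexes were read from 2 lists, which were chosen with earlier results of these data known. Ccnb1, Ccnb2, Aurkb, Birc5, Plk1, Ttk and Cenpe among them are in the study's own heatmap of its most changed genes. The counts therefore describe these lists and are not independent of the data. Of 15 targets expressed at the start of S phase, 14 fell in Null cells (all but Orc1) and 15 in DKO cells, against 18.7% and 19.1% of all genes. After the drug 15 of 15 were lower in the DKO line (median log2 -1.36), against 17.8% of all genes. In control cells 5 of the 15 were already lower there (Mcm2, Mcm3, Mcm5, Mcm6 and Tyms), against 8.39% of all genes. The largest differences were those of Rrm2 (log2 -2.54), Cdc45 (-2.05), Mcm5 (-1.67) and Cdc6 (-1.66), all replication genes. For Mcm5 the difference without the drug was -1.15 (adjusted p 4.18e-08). Of 17 targets expressed in G2 and mitosis, 12 fell in Null cells and 17 in DKO cells (medians -0.55 and -3.27), beside the same shares of all genes. After the drug 17 of 17 were lower in DKO cells (median -3.15, 17.8% of all genes lower), where none of the 17 was called in control cells. Cenpf was at 152 ± 8.94 and 150 ± 19.2 CPM in control Null and DKO libraries, and at 76.1 ± 5.39 and 3.20 ± 0.328 CPM after etoposide (SD, n = 3). Ccnb2 (log2 -4.12), Cdc25c (-4.01) and Plk1 (-3.97) were next in size after Cenpf (-4.55). The interaction was called in 13 of the 15 (all but Mcm2 and Pola1) and in 17 of the 17, each negative, a call that 6.39% of all genes had. Of the members themselves, Lin9, Lin54, Mybl2 and Foxm1 are among the DREAM targets that the study lists, of which 261 were in the copy used here.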

How the data were processed

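Per the study's methods, the authors made stranded, ribosomal RNA-depleted libraries, sequenced read pairs, aligned them with HISAT2 and used HTSeq with a GENCODE annotation to count pairs that mapped uniquely. The submitters' processing notes name mm10, HISAT2 and featureCounts, and the strand setting was not given in the sources used here. The deposited table holds the authors' raw counts of each gene in 12 unpooled libraries, and every column was used. The labels give 2 RNA kits without assigning them, and call the controls untreated where the methods name DMSO, so neither could be tested. Groups came from sample titles. Symbols and coordinates are from GENCODE M21 (GRCm38), and promoter windows from RefSeq (GRCm38.p6). Totals ran from 29837255 to 61809316.

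Low genes were removed by filterByExpr (edgeR 4.0.16, 18066 genes kept, 99.96% of counts), scaled by TMM (factors 0.939 to 1.03) and converted to log2 CPM with a prior count of 3. limma 3.58.1 in R 4.3.3 (limma-trend, robust, as the study's methods name it) was fitted to all 12 libraries with 4 group means, and 5 contrasts were adjusted by Benjamini-Hochberg over all genes, two-sided, with calls under 0.05. The prior count understates the fold change of low genes. Steps were tested on simulated data. Alternatives were scaling by library size alone or by DESeq2 1.42.0 size factors, edgeR's quasi-likelihood test, the DESeq2 Wald test, no filter, a filter of 1 CPM in 3 libraries, a prior count of 0.5, fits of the 2 groups compared, a replicate block and leaving out each library. Leaving out both first control libraries was added after the data were seen.

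The rule for the members names genes by symbol and uses no measured value of these libraries, but it was written, and the gene lists, motifs and tests were chosen, with earlier results of these data known. Apart from the members, up to 4 genes a list were named, those with the largest absolute log2 difference in the comparison described, with the 3 genes most correlated with each of 5 members, the targeted genes and genes overlapping a member. Genes that complete a small count, and Cdkn1a, which falls outside this rule, were named after their values were seen. Lists were the E2F and DP partners, activator E2Fs, assembly kinases and CDK inhibitors, cyclins and kinases, paralogs, targets of S phase and of G2 and mitosis, and macrophage and fibroblast markers. Of the 3 paralogs listed, Myb was filtered out. Shares per kilobase use the union of a gene's exons.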

Additional observations from a re-analysis of the deposited data

Results flagged for a closer look

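For 6 of the 10 members the response to etoposide differed between the 2 lines by a test of the difference itself, the interaction term of limma-trend with Benjamini-Hochberg adjustment over all genes. All 6 differences were negative, a call that 6.39% of all genes had. On the log2 scale the response in DKO cells minus that in Null cells was -1.95 for Mybl2 (adjusted p 1.66e-06), -1.64 for Foxm1 (adjusted p 0.000324), -1.21 for Lin9 (adjusted p 4.90e-05), -0.96 for Lin54 (adjusted p 0.000226), -0.93 for Rbl2 (adjusted p 5.59e-05) and -0.89 for Rbl1 (adjusted p 6.02e-05). In 5 of them both lines fell or the Null line missed the threshold, and DKO cells fell further. Rbl2 is the one that rose in both lines, and it rose less in DKO cells. Each of the 6 kept its call in the 12 fits that left out 1 library. With 3 libraries a group, Dixon's test for an outlying library was not run.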

How the results depend on the processing

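Of 50 member results (10 genes in 5 comparisons), 37 kept their direction and side of the threshold under every alternative, including every interaction call. Of 13 that changed, 3 lost and 3 gained a call and 7 changed sign, none of the 7 called with all libraries; the cause was not tested. Members called between control groups, 2 with all libraries, were 0 without a filter, with only the 2 groups compared and with the replicate block, and 0 to 2 on leaving out 1 library. Genes called there, 3490 with all libraries, were 2031 with only the 2 groups, 2727 to 4721 on leaving out 1 library and 7434 without both first control libraries. Interaction calls, 1708 with all, were 1203 to 2038 on leaving out 1 library and 3731 without both first control libraries. The latter fit drops the 2 libraries that stood farthest from their group, so a smaller spread was set by the choice. Control calls split into 1974 higher and 1516 lower, but 1579 and 2057 with library size alone.

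Same-numbered libraries did not deviate together (18 pairs, median correlation 0.00, 1 over 0.1), and 0 of 12 libraries correlated best with their own number. Of 36 pairs with different numbers 8 were over 0.1, the highest at 0.58 (Null control library 3 with DKO control library 1). Some libraries of different groups thus shared deviations, and whether a day or batch was shared was not tested. With the replicate block, members called were 6, 8, 0, 8 and 6 in the order Null etoposide, DKO etoposide, control genotypes, etoposide genotypes and interaction. It ended the call of Rb1 for etoposide in DKO cells (adjusted p 0.0586) and those of Rb1 and Lin54 between control groups (adjusted p 0.0832 and 0.0664), and no other.

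Signs that changed were those of Lin37 for etoposide in Null cells (-0.069 by edgeR, -0.087 by DESeq2, -0.32 to 0.39 on leaving out libraries) and in DKO cells (-0.33 to 0.52 on leaving out libraries), and for its interaction (-0.71 to 0.50). Between control groups Mybl2 changed to -0.0064 with library size alone. On leaving out libraries the control difference ran from -0.097 to 0.047 for Lin9, -0.23 to 0.18 for Foxm1 and -0.00011 to 0.22 for Mybl2, and the Rbbp4 interaction from -0.025 to 0.10. Dividing by the longest transcript gave Rbl2 shares of 15.3%, 15.7%, 37.4% and 34.1% in Null control, DKO control, Null etoposide and DKO etoposide libraries, and no division gave 15.6%, 16%, 38.1% and 34.8%.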
